A study of Mus musculus with 12 samples.

Results

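A microRNA guides an Argonaute (Ago) protein to messenger RNAs that pair with its seed, the stretch near its 5′ end. A target word that matches every seed letter is bound most tightly, and a single mismatch in the seed usually weakens the pairing. The data described here are Ago HITS-CLIP peaks, short RNA stretches where reads crosslinked to Ago pile up, whose best match to miR-144-3p had a mismatch at seed position 2, 3, 5 or 6. They were taken from the authors' deposited peak table by their seed code for miR-144-3p (2, 3, 5 or 6), with a code of 0, no match, for miR-451a. This rule found 14188 of 106382 peaks (13.3%). Position 2 had 2709 of them, position 3 had 2549, position 5 had 2412 and position 6 had 6518. The rule used only sequence codes, and no read count or comparison between genotypes entered it. The peaks it was applied to were themselves defined from reads of the pooled Ago libraries.

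The peaks came from mouse fetal liver, the main site of red cell production before birth, from strain C57BL/6J. KO embryos lacked the miR-144/451 locus (genotype miR-144/451-/-), which encodes miR-144 and miR-451a and is highly active in red cell precursors, and WT embryos carried it. RNA was precipitated from liver cells with an Ago antibody in 3 KO and 3 WT libraries, or with control IgG in 3 KO and 3 WT libraries. Since the KO lacks both microRNAs at once, effects of miR-144 and of miR-451a cannot be told apart in it. The labels state neither the age of the embryos nor how Ago and IgG libraries pair by liver. Counts of the peak table at the locus were not used, so the deletion itself was not checked. Libraries are named by the number in their title: KO Ago 3, 12 and 13, WT Ago 1, 9 and 10, KO IgG 4, 8 and 14, and WT IgG 2, 6 and 11.

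The words behind the seed codes are shown first, because the position of the mismatch is what sets the 4 groups apart. In the mature miR-144-3p from RefSeq (GRCm38.p6, chr11:78073047-78073066, plus strand), the capitals mark the seed, letters 2 to 8. The second sequence is mature miR-451a of the same locus (chr11:78073186-78073207, plus strand), which the KO also lacks. Its capitals, letters 14 to 19, spell the miR-144-3p target word with a mismatch at position 2.
miR-144-3p: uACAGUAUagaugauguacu
miR-451a: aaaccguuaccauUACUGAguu

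The full 6-letter target word of miR-144-3p is TACTGT, read on the strand of the RNA. A mismatch at position 2 alters its last letter (TACTGN), one at position 3 letter 5 (TACTNT), one at position 5 letter 3 (TANTGT) and one at position 6 letter 2 (TNCTGT), where N is a letter other than the matching one. Only the strand of the gene was searched. In 32851 RefSeq windows holding the first 43 bases from a gene's start, 1.99% held the position 2 word, 1.31% the position 3 word, 1.14% the position 5 word and 4.68% the position 6 word, against 0.524% with the full word. The position 6 word was the commonest in these windows, as it was among the peaks. Of 289 peaks that lay inside a RefSeq promoter sequence, 57 carried a mismatch code. All 57 held their word once 5 bases were added on each side, and 229 of the 232 with code 0 held none.

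Sites are given for 2 peaks per position in such sequences, to show what a match of each kind looks like. They had the most reads among peaks with a gene name, with a chromosome left out of the ranking. Some were thin, such as Btla with 7 reads in the Ago libraries. The capitals mark the target word, and each change is named by the letter of the full word, its place from 1 at the 5′ end of that word, and the letter of the site. All coordinates are mm10 (GRCm38.p6). The position 2 sites (T6A in both) were in the 5′UTR of G3bp2 (chr5:92083557-92083582, minus strand) and upstream of Nras (chr3:103058157-103058182, plus strand). The position 3 sites were in the 5′UTR of the histone genes Hist2h2ac (G5C, chr3:96220840-96220865, minus strand) and Hist1h2ap (G5T, chr13:21833471-21833496, minus strand). The position 5 sites (C3G in both) were in a peak labelled coding in the histone gene Hist1h3i (chr13:21783367-21783392, minus strand) and upstream of Btla (chr16:45224264-45224289, plus strand). Each place given for these sites is the label of the peak, and where the word itself lies in the gene was not checked. The position 6 sites (A2C in both) were in the 5′UTR of Rsrp1 (chr4:134923645-134923670, plus strand) and upstream of Hist1h2bk (chr13:22035834-22035859, plus strand).
G3bp2, position 2: cccgcgacacTACTGAcctccgcgcg
Nras, position 2: aataaagtttTACTGAtttttgagac
Hist2h2ac, position 3: tcctacattaTACTCTaagttatgtc
Hist1h2ap, position 3: agaagctgtcTACTTTctaccatgtc
Hist1h3i, position 5: attcactttcTAGTGTactgagatgg
Btla, position 5: aagatgctgcTAGTGTgaataacgtg
Rsrp1, position 6: cagtggaggtTCCTGTgctctccggt
Hist1h2bk, position 6: tatctgcttgTCCTGTtgggtgttca

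Most of the mismatch peaks were thin. The median one held 10 reads over the 6 Ago libraries, the same as in the whole table. Only 361 (2.54%) passed the filter on low counts and were tested, against 2.28% of all peaks, and their median was 86 reads. Position 2 had 58 tested peaks, position 3 had 77, position 5 had 54 and position 6 had 172. Of all 14188, 4137 lay in coding sequence, 3951 in 3′UTRs, 3665 between genes, 1769 in introns and 229 in 5′UTRs. Peaks between genes made up 36.2% at position 5 and 34.6% at position 3, against 20.9% of all peaks.

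The libraries held between 147969 and 341061 reads in peaks for KO Ago, 202876 to 452157 for WT Ago, 24622 to 42916 for KO IgG and 25985 to 42399 for WT IgG. Genes of the erythroid list took 2.89% to 3.40% of peak reads in KO Ago libraries and 3.54% to 4.20% in WT Ago libraries, without overlap. Genes of the hepatocyte list took 1.68% to 3.15% in KO Ago and 0.888% to 2.57% in WT Ago libraries. The macrophage genes Adgre1, Cd68 and Csf1r together had 5 to 14 reads in each KO Ago library and 12 to 13 in each WT Ago library. The granulocyte genes Mpo, Elane and Prtn3 had 89 to 214 reads in KO Ago and 114 to 256 in WT Ago libraries. In bulk tissue, fewer cells of a type and less RNA per cell cannot be told apart, and RNA levels of the genes were not among the values used.

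Peaks with these mismatches were called lower in KO in a minority of cases, with the highest share at position 2. Of the 361 tested, 34 (9.42%) fell in KO and 8 (2.22%) rose in edgeR's quasi-likelihood test at an adjusted p under 0.05. Over all 2425 tested peaks, 17.6% were called lower and 1.4% higher. Among the 1210 tested peaks with no match to any microRNA of the locus, 76 (6.28%) were called lower. The median log2 change, KO over WT, was 0.12 for the mismatch peaks, 0.09 for all tested peaks and 0.21 for peaks with no match. All KO libraries lay below all WT libraries at 53 of the mismatch peaks and above them at 41, against 22.3% and 10.1% of all tested peaks.

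By position, 12 of 58 peaks fell at position 2 (20.7%), 6 of 77 at position 3 (7.79%), 1 of 54 at position 5 (1.85%) and 15 of 172 at position 6 (8.72%). The median log2 changes were 0.00, 0.19, 0.30 and 0.00 in that order of positions. Peaks called higher numbered 1, 2, 2 and 3. For comparison, 4 of 31 peaks fell with a mismatch at position 4 and 29 of 103 (28.2%) with one at position 7. Matches without a mismatch gave 10 of 37 for the 6-mer, 17 of 32 for the 7-mer-A1, 5 of 19 for the 7-mer-m8 and 11 of 15 for the 8-mer. Differences between these shares were not tested, since peaks of one gene share its RNA.

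**Figure D1:**
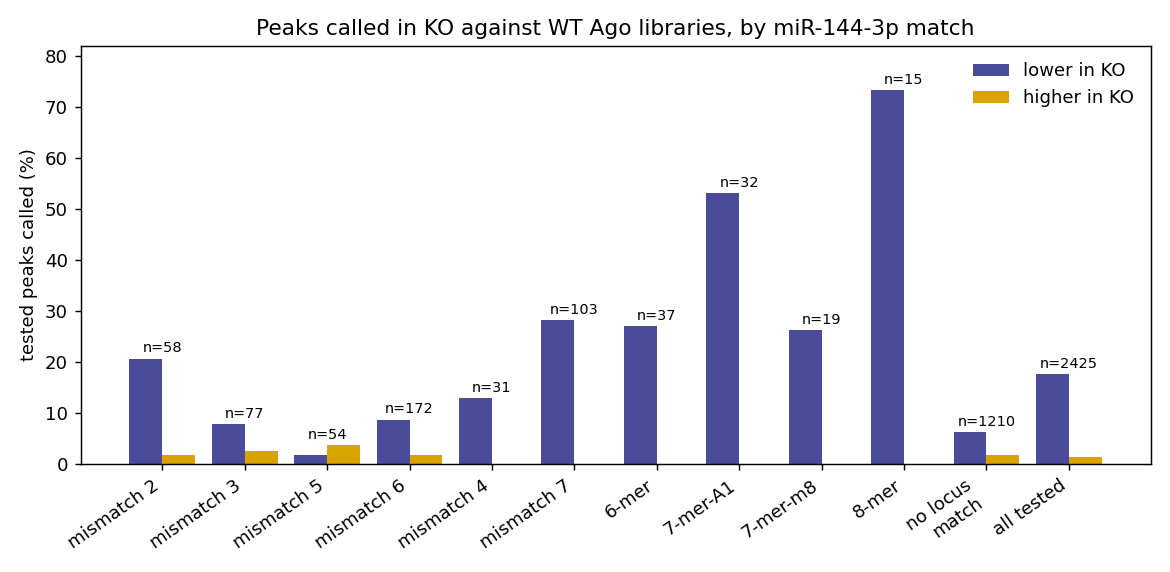
Percent of tested peaks called lower (blue) and higher (yellow) in KO against WT Ago libraries, by the peak's match to miR-144-3p, with the number tested above each pair. Positions 3, 5 and 6 lie at 7.79%, 1.85% and 8.72% lower, position 2 at 20.7%, and peaks with no match to the locus at 6.28%.

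Single libraries moved these counts. Without WT Ago library 1, 18 mismatch peaks were called lower and 0 higher in KO (edgeR), with 4 of the lower ones at position 2 and 0 at position 5. Without KO Ago library 3, 13 or WT Ago library 10, the smaller libraries, more peaks passed the filter (680, 717 and 693 mismatch peaks), and 83, 78 and 61 were called lower. Over the 6 fits that left out 1 library, 5.75% to 13.0% of mismatch peaks were called lower, against 14.2% to 20.7% of all peaks. Without KO library 3, 13 or WT library 10, position 2 had 42, 44 and 25 peaks called lower, and position 5 had 7, 6 and 3. Position 5 had 4 without KO library 12 and 3 without WT library 9. Position 3 had 10 without KO library 3 and 3 without WT library 9. Position 6 had 24 without KO library 3, 27 without WT library 10, and 10 without WT library 1 or 9. The count called higher was 3 without KO library 12 and 4 without WT library 9. On library size alone, with no TMM scaling, the median over all tested peaks moved to a log2 change of 0.30 and that over the mismatch peaks to 0.34. Of the mismatch peaks 32 were then called lower and 16 higher, against 384 and 83 of all 2425.

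Of the 12 position 2 peaks called lower, 8 lay between genes and were very short. They were among 9 tested position 2 peaks that were intergenic and at most 24 nt wide. Among peaks of the same kind, 0 of 21 at position 3, 1 of 16 at position 5 and 0 of 8 at position 6 were called lower. Over all peaks, 133 such narrow intergenic ones were tested and 10 were called lower, so 9 of the 10 carried one of these mismatch codes. The width limit was set after the values were seen. In genes, position 2 gave 4 of 48 peaks called lower (8.33%), position 3 gave 6 of 54, position 5 gave 0 of 38 and position 6 gave 15 of 153. All mismatch peaks in genes gave 25 of 293 (8.53%), and peaks in genes with no match to the locus gave 6.67%.

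**Figure D2:**
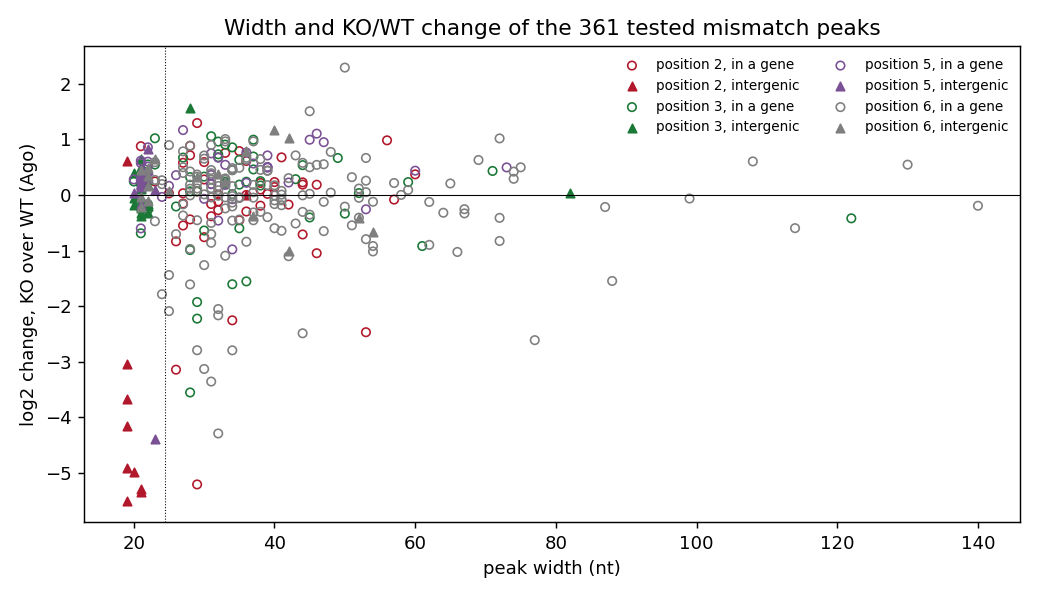
Peak width in nt against the log2 change, KO over WT, of each tested mismatch peak, by seed position (colour) and by place (filled triangles between genes, open circles in genes). The dotted line marks 24 nt, and the cluster of red triangles at the lower left holds the 8 narrow position 2 peaks between genes that were called lower in KO.

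The 8 narrow position 2 peaks were on chromosomes 4 (3 of them), 6 (2), 11, 15 and 19. The one with the largest fitted change, chr4:89565031-89565049 (minus strand), had 1, 0 and 0 reads in KO Ago libraries 3, 12 and 13, against 29, 21 and 19 in WT Ago libraries 1, 9 and 10 (edgeR adjusted p = 0.00012). Its WT to KO ratio of reads, scaled for library size after TMM, was 58.0, with an exact 95% interval from 10.1 to 2322. The peak with the most reads, chr15:73758276-73758294 (minus strand), had 6, 1 and 2 reads in KO and 28, 36 and 26 in WT (log2 change -3.03 ± 0.51 SE, edgeR adjusted p = 0.00041). At each of the 8, every KO Ago library was below every WT Ago library. They were picked by their call between these same libraries, so this adds no support to the call.

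These short peaks also held reads in the control libraries. Summed over the 8, there were 15, 2 and 5 reads in the KO Ago libraries and 211, 181 and 145 in the WT Ago libraries. The KO IgG libraries had 13, 12 and 14 reads and the WT IgG libraries 40, 64 and 26. As CPM of all peak reads, which scales every library to the same total, the sums were 5.86 to 75.5 in KO Ago, 400 to 723 in WT Ago, 303 to 569 in KO IgG and 1001 to 1509 in WT IgG. Within each genotype the IgG libraries lay above the Ago libraries on this scale, and with each antibody the KO libraries lay below the WT libraries. These differences were not tested. That between KO and WT Ago follows from picking peaks called lower, and the IgG libraries were not part of that call. The 45 narrow intergenic mismatch peaks that were not called had 1727 to 3710 CPM in KO Ago and 1300 to 2824 in WT Ago. In the IgG libraries they had 5453 to 7894 in KO and 5003 to 8656 in WT. The genotypes overlapped with both antibodies, which for Ago follows from picking peaks that were not called.

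**Figure D3:**
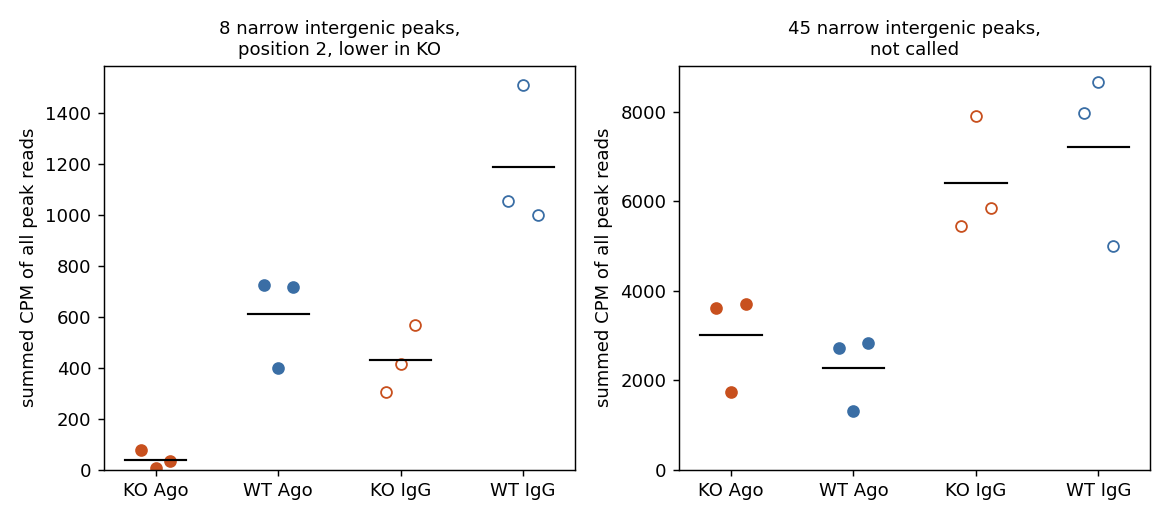
Summed CPM of all peak reads for each library (points) and the group mean (bar), for the 8 narrow position 2 peaks called lower (left) and the 45 narrow mismatch peaks not called (right). On the left KO libraries lie below WT libraries with Ago (filled) and with IgG (open), and on the right the genotypes overlap. Both sets were picked by their call between the Ago libraries. The IgG libraries were not part of that call, but whether they share livers with the Ago libraries is not stated.

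The word for position 2 occurs in mature miR-451a, as printed above, and it was found in 22 of 1738 mature mouse miRNAs. The words for positions 3, 5 and 6 were found in 20, 18 and 66 of them, and the full word in 18. The letters of the 8 narrow peaks were not read here, so whether their reads carry miR-451a sequence was not tested. The remaining narrow peak called lower, at position 5 (chr19:18260083-18260105, minus strand), had 1, 0 and 1 reads in KO Ago and 24, 19 and 14 in WT Ago libraries. With no filter on low counts, 80 of 599 narrow intergenic position 2 peaks (13.4%) and 52 of the 2110 other position 2 peaks (2.46%) were called lower. The values over all peaks without the filter were 2.51% of narrow intergenic and 2.55% of other peaks.

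By place, 15 of the 34 peaks called lower in KO lay in coding sequence and 9 between genes. In coding sequence 15 of 116 fell and 1 rose, with a median log2 change of -0.02. In 3′UTRs 5 of 125 fell and 6 rose, with a median of 0.27. All tested peaks gave 19.2% lower in coding sequence and 17.7% in 3′UTRs, and peaks with no match to the locus gave 5.82% and 7.89%. Called higher were 0.987% of all tested coding peaks and 1.99% of all tested 3′UTR peaks. The difference between the places was not tested. The coding peaks called lower were 3 at position 2, 2 at position 3 and 10 at position 6.

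Genes of cell division and DNA replication supplied 4 peaks that fell. In the list of mitosis and cell cycle genes, 17 mismatch peaks were tested, 4 fell and 0 rose, with a median log2 change of -0.26. All 88 tested peaks of that list gave 28 lower, 0 higher and a median of -0.51. The coding peak of Kif15 (position 2, chr9:123017690-123017718, plus strand), a kinesin motor of the mitotic spindle, had 0, 1 and 0 reads in KO and 21, 25 and 12 in WT Ago libraries (edgeR adjusted p = 9.1e-05). The WT to KO ratio of its reads, scaled for library size after TMM, was 48.7, with an exact 95% interval from 8.41 to 1957, and it also carried a miR-144-5p code.

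Top2a encodes a topoisomerase that untangles DNA before division. Its 3′UTR peak (position 2, chr11:98993188-98993240, minus strand) had 3, 14 and 2 reads in KO and 30, 76 and 22 in WT libraries, a log2 change of -2.47 ± 0.44 SE (edgeR adjusted p = 0.00058). Mcm6 encodes a subunit of the replicative helicase, and its coding peak (position 2, chr1:128335819-128335852, minus strand) had 1, 5 and 3 reads in KO and 12, 32 and 10 in WT (log2 change -2.25 ± 0.48, edgeR adjusted p = 0.0026). Cdc25b, a phosphatase that activates cyclin-dependent kinases, fell at a coding peak of position 6, with 3, 7 and 3 reads in KO and 32, 24 and 10 in WT (edgeR adjusted p = 0.0035). At all 4 genes the KO libraries lay wholly below the WT libraries, at peaks picked by their call between these libraries.

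Peaks in Ints6, Ddx26b and Polr2b also fell. Ints6 encodes a subunit of the Integrator complex, which cleaves RNA made by RNA polymerase II, and Ddx26b is its paralog. The coding peak of Ints6 (position 6, chr14:62709584-62709615, minus strand) had 1, 1 and 2 reads in KO and 38, 48 and 17 in WT libraries (log2 change -4.29 ± 0.51, edgeR adjusted p = 7.1e-05). The coding peak of Ddx26b (position 6, chrX:56485263-56485291, plus strand) had 3, 3 and 1 reads in KO and 12, 34 and 15 in WT (log2 change -2.79 ± 0.48, edgeR adjusted p = 0.00047). Polr2b, the second largest subunit of RNA polymerase II, had 1, 3 and 0 reads in KO and 24, 27 and 9 in WT at its coding peak (position 3, chr5:77336527-77336554, plus strand), a log2 change of -3.55 ± 0.57 (edgeR adjusted p = 0.0003).

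The red cell programme was represented by 27 tested mismatch peaks in 18 of the listed erythroid genes. Of these 7 fell and 1 rose, with a median log2 change of -0.44, while all 225 tested peaks of the erythroid list gave 55 lower, 3 higher and a median of -0.38. Genes of the erythroid list took a smaller share of peak reads in each KO than in each WT Ago library, as given above, and the part of that in these counts was not tested.

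Peaks in the enzymes of haem synthesis were called in both directions. Alad, which forms the pyrrole building block of haem, fell at a coding peak (position 6, chr4:62510127-62510158, minus strand) with 12, 3 and 5 reads in KO and 56, 33 and 20 in WT (log2 change -2.16 ± 0.53, edgeR adjusted p = 0.0073). Ppox, which oxidises the penultimate intermediate in mitochondria, fell at a coding peak (position 6, chr1:171277123-171277199, minus strand) with 3, 5 and 4 reads in KO and 27, 45 and 19 in WT (log2 change -2.61 ± 0.38, edgeR adjusted p = 0.00018). Urod, which removes carboxyl groups from uroporphyrinogen, fell at a coding peak of position 6, with 7, 10 and 2 reads in KO and 21, 19 and 13 in WT (log2 change -1.26 ± 0.41, edgeR adjusted p = 0.042). The call at Urod was lost in 7 of 9 alternative settings, with adjusted p up to 0.19.

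Cpox, the oxidase that acts between Urod and Ppox, rose at a 3′UTR peak (position 5, chr16:58680177-58680222, plus strand). It had 33, 67 and 23 reads in KO and 12, 38 and 17 in WT (log2 change 1.10 ± 0.33, edgeR adjusted p = 0.029), and the groups did not overlap once scaled for depth. That call was lost in 4 of 10 alternative settings: with DESeq2, with no filter on low counts, without WT library 1 (adjusted p = 0.3) and without KO library 12 (0.099). The 2 coding peaks of Cpox were not called, with log2 changes of 0.32 at position 3 and 0.16 at position 6. Alas2, the first and rate-limiting enzyme in red cell precursors, had 3 peaks at position 6 with log2 changes of -0.33, -0.04 and 0.27, none called. Fech, which inserts the iron, had a log2 change of 0.73 at a position 3 coding peak (edgeR adjusted p = 0.21), and the intron peak of Alad had -1.02 (adjusted p = 0.072).

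Iron import was represented by Tfrc and Slc25a37. Tfrc, the transferrin receptor, had 0, 4 and 1 reads in KO and 18, 19 and 16 in WT libraries at a coding peak (position 6, chr16:32618277-32618306, plus strand), a log2 change of -3.13 ± 0.58 (edgeR adjusted p = 0.00082). Slc25a37, mitoferrin, which carries iron into mitochondria, had 2, 7 and 1 reads in KO and 24, 23 and 9 in WT at an intron peak (position 3, chr14:69248638-69248666, minus strand), a log2 change of -2.22 ± 0.48 (edgeR adjusted p = 0.0028). Steap3, the iron reductase of endosomes, was not called, at 0.71 ± 0.37 (edgeR adjusted p = 0.26). The receptor for erythropoietin, Epor, was not called either, at -0.76 ± 0.58, with 2, 23 and 2 reads in KO and 8, 37 and 9 in WT.

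Slc4a1, the anion exchanger of the red cell membrane, was the only gene symbol with more than 1 mismatch peak called lower. One coding peak (position 6, chr11:102351202-102351233, minus strand) had 4, 9 and 2 reads in KO and 22, 44 and 11 in WT (log2 change -2.05 ± 0.42, edgeR adjusted p = 0.002). A 3′UTR peak (position 3, chr11:102349944-102350004, minus strand) had 13, 20 and 12 reads in KO and 29, 53 and 22 in WT (log2 change -0.92 ± 0.30, edgeR adjusted p = 0.044), a call lost in 8 of 10 alternative settings with adjusted p up to 0.19. The other 3 coding peaks of Slc4a1 had log2 changes of -0.92, -0.83 and -0.44 and were not called. Among other membrane genes, Add2 (beta adducin, of the membrane skeleton) had -0.64 and Ermap (an erythroblast membrane protein) 0.96 at coding peaks, with adjusted p of 0.3 and 0.096. Further erythroid peaks, in Xpo7 (a nuclear export factor), Hemgn (a nuclear protein of blood progenitors), Car2 (carbonic anhydrase) and Cd47 (a surface protein that restrains phagocytosis), had log2 changes of -0.38, -0.12, 0.22 and 0.20 and were not called.

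**Figure D4:**
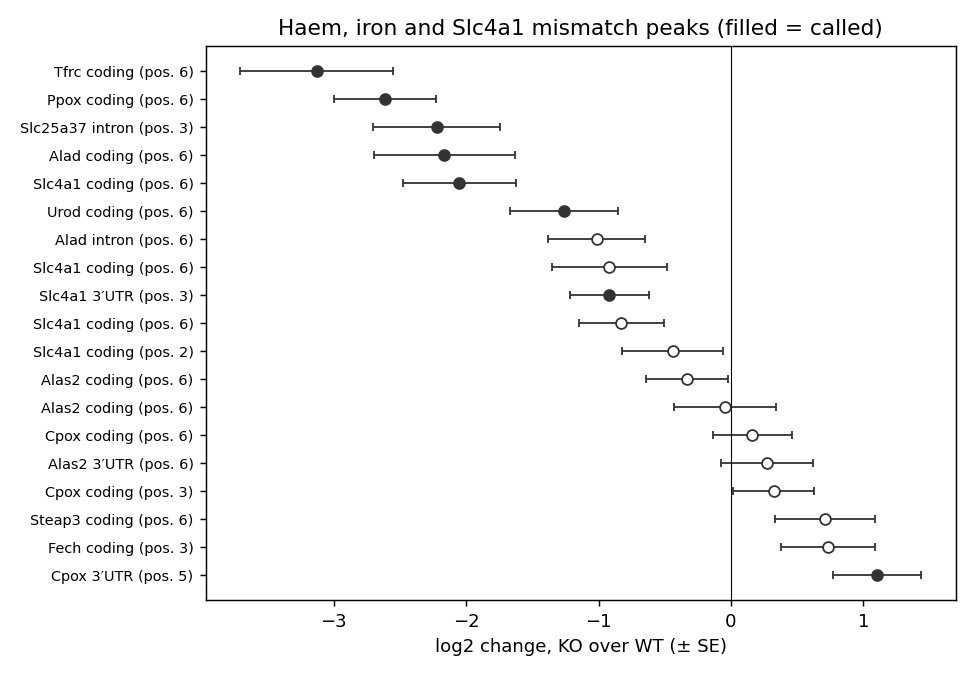
Log2 change, KO over WT, with its standard error, for the 19 tested mismatch peaks in genes of haem synthesis and iron uptake and in Slc4a1, named by gene, place and seed position. Filled points passed the test: 7 are lower, from Tfrc at -3.13 to Slc4a1 at -0.92, and Cpox at 1.10 is higher.

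Peaks in Ctsb, Serinc3 and Rtn3, which are on none of the gene lists, were among those that fell. Ctsb, the lysosomal protease cathepsin B, had 1, 7 and 5 reads in KO and 24, 59 and 28 in WT at a 3′UTR peak (position 6, chr14:63142579-63142612, plus strand), a log2 change of -2.79 ± 0.45 (edgeR adjusted p = 0.00031). Serinc3, a membrane protein of the serine incorporator family, had 1, 9 and 4 reads in KO and 31, 35 and 25 in WT at a coding peak (position 6, chr2:163639279-163639322, minus strand), with -2.49 ± 0.44 (edgeR adjusted p = 0.00061). Its 3′UTR held one of the strongest position 6 peaks that was not called, at 962 ± 104 CPM in KO and 1201 ± 68.2 CPM in WT (SD, n = 3 each, CPM of tested-peak reads after TMM scaling). Rtn3, a reticulon that shapes the endoplasmic reticulum, had 2, 7 and 4 reads in KO and 18, 29 and 13 in WT at a 3′UTR peak (position 3), with -1.92 ± 0.40 (edgeR adjusted p = 0.002).

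Socs4, a suppressor of cytokine signalling, fell at a coding peak of position 2 that also carried a miR-144-5p code, with 2, 2 and 0 reads in KO and 16, 20 and 9 in WT (log2 change -3.14 ± 0.56, edgeR adjusted p = 0.00059). The histone H2A genes Hist1h2ap and Hist1h2ao fell at position 3, with log2 changes of -1.60 ± 0.36 and -1.55 ± 0.35. Their reads differed by only 2.70% over the libraries, so the pair may count the same reads and is uncertain as 2 peaks. An intron peak of the long noncoding RNA 1700020I14Rik fell at position 6 (-1.55 ± 0.43, edgeR adjusted p = 0.016). The other peaks of position 6 called lower were in Map4k5, Picalm, Prdx2 and Cpeb4, named after their values were seen, with log2 changes of -3.35, -1.61, -1.44 and -1.78.

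**Figure D5:**
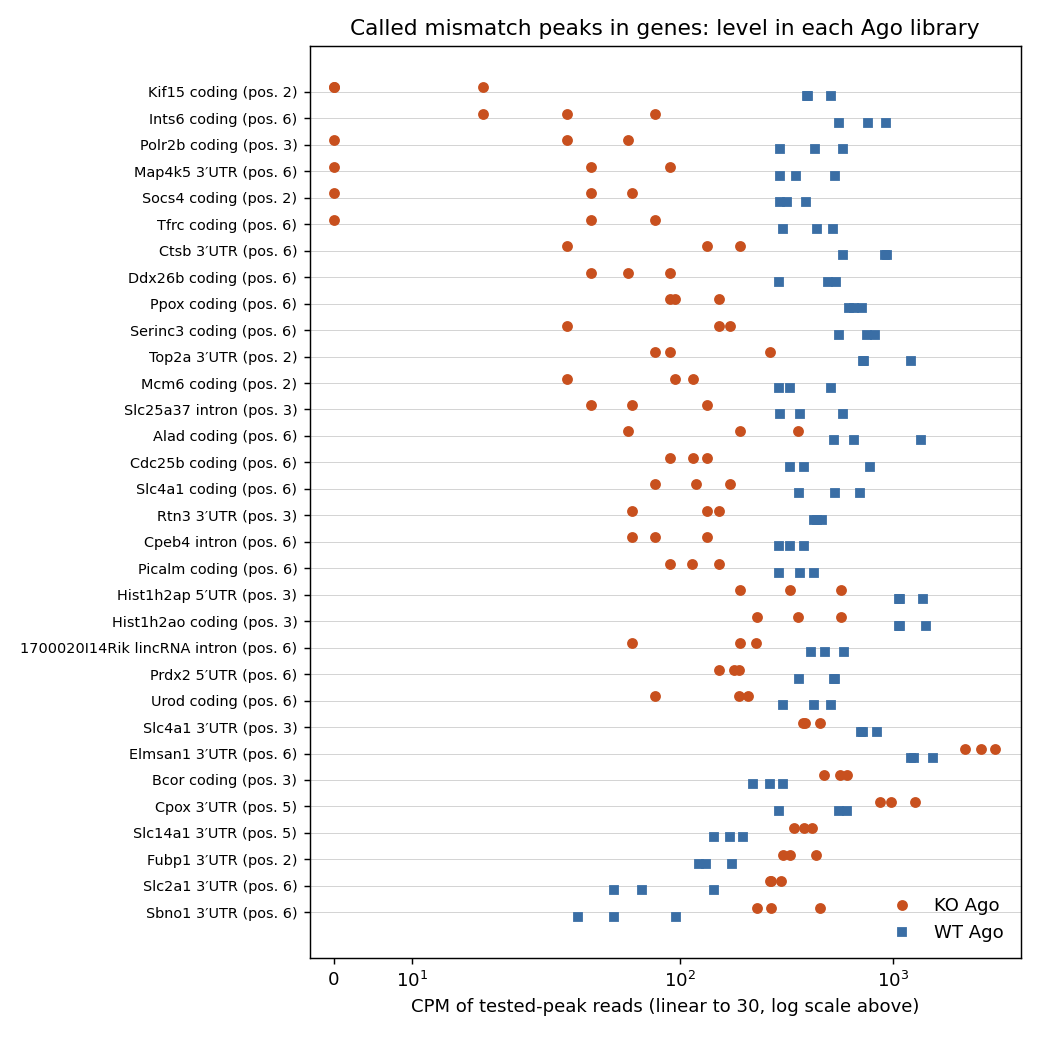
CPM of tested-peak reads in each KO (circles, upper) and WT (squares, lower) Ago library for the called mismatch peaks in genes, ordered by log2 change, on an axis linear to 30 and logarithmic above. From Kif15 to Slc4a1 all KO points lie left of the WT points, and from Elmsan1 to Sbno1 all lie right of them. The peaks were picked by their call between these libraries, so this separation largely follows from that choice.

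Of the 8 peaks called higher in KO, 6 were in 3′UTRs, as were 18 of the 34 called higher over all tested peaks. Sbno1, a homolog of the fly gene strawberry notch, rose at a 3′UTR peak of position 6 (chr5:124373455-124373504, minus strand), with 9, 24 and 6 reads in KO and 2, 6 and 1 in WT (log2 change 2.29 ± 0.50, edgeR adjusted p = 0.0028), and kept its call in all 7 alternative settings that tested it. Slc2a1, the glucose transporter GLUT1, had 10, 14 and 7 reads in KO and 2, 9 and 2 in WT at a 3′UTR peak of position 6 (1.51 ± 0.46, edgeR adjusted p = 0.029). Elmsan1, a protein with a SANT domain, had 88, 116 and 80 reads in KO and 50, 79 and 47 in WT at a 3′UTR peak of position 6 (0.96 ± 0.31, edgeR adjusted p = 0.038).

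At the other positions, Slc14a1, a urea transporter of red cells, rose at a 3′UTR peak of position 5 (379 ± 37.4 CPM in KO and 170 ± 26.8 CPM in WT, SD, n = 3 each). Fubp1, a single-strand DNA-binding protein, rose at a 3′UTR peak of position 2 (1.29 ± 0.38), and Bcor, a transcriptional corepressor, at a coding peak of position 3 (1.02 ± 0.33). An intergenic peak of position 3 (chr3:96464003-96464030, minus strand) had 9, 19 and 11 reads in KO and 7, 3 and 5 in WT (1.57 ± 0.47, edgeR adjusted p = 0.027). Over the 7 peaks in genes called higher, 35 of 68 alternative values lost the call, none of them at Sbno1. DESeq2 called 2 mismatch peaks higher, and 7 of all 2425 tested peaks.

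Changes of single peaks were set against their gene, as the deviation of a peak's log2 change from that over all tested reads of the gene, the peak included. Of 186 mismatch peaks tested this way with edgeR, 8 were lower than their gene (8.01% of all 1398 peaks were) and 3 higher (3.58% of all). Serinc3 coding deviated by -2.02 (adjusted p = 0.0011), Top2a by -1.78 (0.0053) and 1700020I14Rik by -1.65 (0.0058). The others were Cpeb4, Cdc25b, Slc25a37, Ctsb and Slc4a1 coding, from -1.77 to -1.38. In the gene of the Serinc3 peak, 6 peaks with no match to the locus had a median log2 change of -0.13, and in that of the Cpeb4 peak 6 such peaks had a median of 0.64. The higher ones were Prc1 (1.40), Cd47 (1.26) and Cpox 3′UTR (1.07). Tfrc, at -1.62, had an adjusted p of 0.069. The same comparison with limma's diffSplice called 13 of the 186 lower and 25 higher, against 158 and 125 of all 1398 peaks. Leaving out 1 library gave 3 to 12 lower and 0 to 7 higher of 153 to 389 mismatch peaks, against 50 to 182 and 14 to 43 of 1201 to 3138 peaks in all: 4 and 1 without KO library 12, 4 and 0 without WT library 1, 3 and 2 without WT library 9, 10 and 6 without KO library 13, 12 and 7 without WT library 10.

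Few tested mismatch peaks lay near another tested peak with a full miR-144-3p or miR-451a site. Only 1 lay within 100 nt of a tested peak with a 6-mer or longer match to the locus, and it was not called. Peaks left out by the filter on low counts, and sequence outside peaks, were not searched for such sites. Of the mismatch peaks in genes, 32 shared their gene with such a tested peak and 5 of them fell, while 20 of the 261 in other genes fell. Over all tested peaks in genes, 18.5% fell. A miR-144-5p code was present in 40 of the tested mismatch peaks, of which 5 fell. Of the 321 without that code 29 fell (9.03%), against 17.6% of all tested peaks. Of the 62 that also carried a code for miR-16-5p, an abundant microRNA outside the locus, 1 fell, and over all 313 tested peaks with that code 20 fell (6.39%).

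The mismatch peaks not called that had the highest WT level at their position are given for their levels. At position 2 they were in Fth1, the ferritin heavy chain, and its pseudogene Gm6977, whose reads differed by 7.92% and may be shared. Fth1 had 1745 ± 573 CPM in KO and 1489 ± 503 CPM in WT. Hist1h3i held the strongest of these at position 5, at 3695 ± 343 CPM in KO and 3234 ± 384 CPM in WT, and its site is printed above. Hist2h2ac, also printed above, had 1592 ± 299 CPM in KO and 1025 ± 113 CPM in WT, and its groups did not overlap, but the log2 change of 0.63 ± 0.30 had an edgeR adjusted p of 0.2. Cox11, with an intron peak of position 6 that also matched miR-16-5p as an 8-mer, had 1046 ± 86.0 CPM in KO and 1216 ± 181 CPM in WT. Others at this level were Hist1h2ab, an intron peak of Cpeb4 (-0.98, edgeR adjusted p = 0.14) and the hepatocyte genes Alb and Apoa1.

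Genes of other cell types and functions contributed few calls. Of 15 tested mismatch peaks in hepatocyte genes none was called, with a median log2 change of 0.45, and of all 124 tested hepatocyte peaks none was called at a median of 0.41. At an unadjusted p under 0.05, 1 of the 15 and 8 of the 124 passed. Alb had coding peaks at position 3 (3675 ± 1446 CPM in KO and 3131 ± 1940.3 CPM in WT) and position 6. None was called among 2 macrophage, 4 granulocyte, 2 translation and 3 chromatin gene peaks, and 1 of 6 in RNA-binding genes fell, in Cpeb4. Over all tested peaks, 0 of 3 macrophage, 0 of 12 granulocyte, 7 of 39 translation, 6 of 27 chromatin and 12 of 54 RNA-binding peaks fell. The mismatch peaks per list are too few to set against these shares. The list of Ago pathway genes held no tested mismatch peak.

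The share of all peak reads in the 14188 mismatch peaks, tested or not, overlapped between genotypes. It was 13.9% to 14.3% in KO Ago libraries and 13.1% to 14.5% in WT Ago libraries, 11.9% to 12.1% in KO IgG and 11.7% to 13.9% in WT IgG libraries. The position 2 peaks took 2.24% to 2.46% in KO Ago and 2.55% to 3.03% in WT Ago libraries, without overlap. Of this, the narrow intergenic peaks took 0.137% to 0.354% in KO and 0.381% to 0.854% in WT, and the other position 2 peaks 1.97% to 2.24% in KO and 2.00% to 2.17% in WT, which overlapped. Peaks with a 7-mer or 8-mer match to miR-144-3p took 0.955% to 1.12% in KO and 1.89% to 2.30% in WT Ago libraries. Those with no match to the locus took 60.6% to 61.4% in KO Ago and 51.0% to 55.0% in WT Ago libraries, without overlap. A share depends on all other peaks of its library, so overlapping shares do not show equal levels between genotypes. Of the 4 positions, IgG signal relative to Ago, by the authors' deposited ratio, was highest at position 5 (median 0.238 of tested peaks) and position 3 (0.150). It was 0.113 at position 2, 0.104 at position 6, 0.221 at the position 4 mismatch and 0.0971 over all tested peaks. Narrow intergenic peaks had 0.501 at position 5, 0.407 at position 3 and 0.406 over all tested. In genes the medians were 0.144 at position 5 and 0.114 at position 3. They were 0.101 at position 2, 0.0999 at position 6 and 0.0909 over all tested peaks in genes.

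The authors' deposited table of differential peaks, with more peaks than were tested here, listed 922 of the mismatch peaks. At a false discovery rate under 0.05 it called 247 lower (26.8%) and 11 higher, against 35.7% and 1.29% of its 6651 peaks, and 18.8% lower among its peaks with no match to the locus. In the authors' deposited table, 80 of 196 were lower at position 2, 36 of 189 at position 3, 30 of 126 at position 5 and 101 of 411 at position 6. Of its narrow intergenic peaks, 36 of 42 were lower at position 2, 13 of 56 at position 3, 13 of 46 at position 5 and 18 of 40 at position 6, and 163 of 446 among those with no match to the locus. Within genes the authors' deposited table had 42 of 148 lower at position 2, 23 of 124 at position 3, 14 of 73 at position 5 and 73 of 320 at position 6. Its peaks in genes with no match to the locus gave 397 of 2554 (15.5%). Differences between these shares were not tested.

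Some genes called only in the authors' deposited table were too thin for the filter used here, and are named after their values were seen. Skp2, which marks cell cycle inhibitors for degradation, had an authors' log2 change of -5.04 at a 3′UTR peak of position 2 in the authors' deposited table. Ckap5, a microtubule polymerase of the spindle, had -4.23 at a coding peak of position 2 there. In the same authors' deposited table, Capn1, a calcium-dependent protease, had -4.68 and Lig1, the DNA ligase of replication, -3.59 at coding peaks of position 6.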

How the data were processed

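Ago HITS-CLIP and IgG control libraries of KO and WT fetal liver were analysed from the authors' deposited peak table. Per the deposited column description, peaks were defined on pooled Ago libraries, and counts are raw reads overlapping a peak by at least 16 bases. The authors' deposited seed codes are a score per microRNA: 2 to 7 for a mismatch at that position, 8 for an offset 6-mer, 11 for a 6-mer, 12 for a 7-mer-A1, 13 for a 7-mer-m8 and 14 for an 8-mer. The authors' deposited IgG ratio sets IgG over Ago peak heights. Their deposited differential table gives log2 fold changes of KO over WT and false discovery rates, which are adjusted p-values of the authors. The submitters' processing notes name build mm10 and the tools STAR, cutadapt, limma and bedtools, without roles or versions.

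Counts of all peaks in the 6 Ago libraries were fitted with edgeR 4.0.16 in R 4.3.3 (TMM, minimum count 10, minimum total 15, quasi-likelihood test), and p-values were adjusted by Benjamini-Hochberg over all 2425 tested peaks at a threshold of 0.05. The peak-against-gene test was edgeR's diffSpliceDGE. Steps were tested on simulated data. Alternatives used DESeq2 1.42.0, limma 3.58.1, library size alone, no filter, the peaks of the authors' table and leaving out each library. Errors of log2 changes are standard errors, and intervals cover counting error only. Nothing ties each library to a liver of its own, so the p-values describe spread among libraries that may be partly technical. No 2 libraries of a group agreed within sampling noise.

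The peaks and gene lists were chosen with earlier results of these data known. Named by rule were, per position, up to 6 genes with the smallest p called lower, up to 3 called higher and the 3 with the highest WT level not called. Added to these were erythroid list peaks, genes with 2 or more lower peaks and the 3 smallest p against the gene. Of 246 genes with tested peaks, 224 matched a RefSeq symbol and 19 a synonym. The 46 mismatch peaks whose gene name had become a date are not named, and 1 erythroid peak is not reported here.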

Additional observations from a re-analysis of the deposited data

How the results depend on the processing

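No paired analysis was made, because the labels do not state which KO and WT libraries, if any, belong together. No named peak that was called turned its direction under an alternative, while the log2 changes of some named peaks that were not called, such as Car2 and Cd47, crossed 0. Of the peaks called lower, 16 of 197 alternative values lost the call, at Urod, the Slc4a1 3′UTR and 1700020I14Rik. Of those called higher, 35 of 68 lost it, and 5 values of peaks not called gained one. DESeq2 called 30 mismatch peaks lower and 2 higher (0 higher at positions 2, 3 and 5), and limma-voom 33 and 10. Over all 2425 tested peaks, DESeq2 called 373 lower and 7 higher, and limma-voom 419 and 30. Library size alone gave 16 higher (2, 4 and 8 at positions 2, 3 and 6), against 83 of all 2425. With no filter 300 were lower, of which position 2 had 132, position 3 had 55, position 5 had 42 and position 6 had 71, and 0, 0, 1 and 5 were higher, with 2.11% of mismatch peaks and 2.54% of all peaks lower. Over all 106381 peaks fitted that way, 35 were higher. On the peaks that the authors tested, 178 were lower (69, 27, 22 and 60 by position) and 42 higher (7, 11, 6 and 18), with 19.3% of mismatch peaks and 28.5% of all peaks lower. Of the 922 mismatch peaks in that fit 42 were higher, and of all 6651 peaks 297 were. Leaving out 1 library gave 18 to 83 lower and 0 to 10 higher, against 304 to 986 and 3 to 54 of all 2148 to 4976 peaks. Position 2 then ranged over 4 to 44 lower and 0 to 2 higher, position 3 over 3 to 10 and 0 to 2, position 5 over 0 to 7 and 0 to 2, and position 6 over 10 to 27 and 0 to 4. Fewer or more peaks passed the filter in these fits, from 313 to 717 mismatch peaks. The last 3 alternatives were added after seeing the data. Without narrow intergenic peaks position 2 had 4 lower and position 5 had 0, without peaks of an IgG ratio of 0.2 or more position 2 had 6, and without peaks carrying a miR-144-5p code position 5 had 0. Against the gene, limma's diffSplice called 13 lower and 25 higher of 186 mismatch peaks (158 and 125 of all 1398), and leaving out 1 library 3 to 12 lower and 0 to 7 higher of 153 to 389 (50 to 182 and 14 to 43 of all 1201 to 3138). The cause of these differences was not tested. Shares of peak reads without intergenic peaks were 11.1% in KO Ago and 10.3% in WT Ago, and without miR-144-5p-coded peaks 12.6% and 12.3%. Depth limits the thin peaks: the median standard error of a mismatch peak's log2 change was 0.40, and 13827 of these peaks were not tested.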
